A study of Mus musculus with 9 samples.

Results

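Signals of 10 genes of oxygen sensing and of the response to low oxygen were followed in the border zone of infarcted mouse hearts. The genes were taken by symbol, as a fixed list of the oxygen-labile factor genes Hif1a and Epas1, their partner Arnt, the hydroxylase genes Egln1, Egln2, Egln3 and Hif1an, the ubiquitin ligase gene Vhl and the response genes Hmox1 and Ankrd37. All 10 were found among the 19505 named genes of the array, each on 1 probe set. The hearts came from female SCID mice, a strain that lacks functional T and B lymphocytes, aged 80 to 100 days. Every mouse had the left anterior descending coronary artery tied, and the region around the infarct was taken 4 weeks later. The 3 groups had received exosomes precipitated from cardiomyocytes that were derived from induced pluripotent stem cells (iCM-Ex), such cardiomyocytes themselves (iCM) or saline. Each group had 3 hearts, labelled as biological replicates, with 1 array each. All groups, saline included, carried an infarct, and no heart without one was analysed here. Neither the species that the stem cells came from nor how many injected cells the hearts still held is stated in the labels.

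Cells sense oxygen mainly through hydroxylases that need oxygen as a substrate. With oxygen at hand, the EGLN enzymes (also called PHD1 to PHD3) hydroxylate prolines of the HIF alpha subunits, and the VHL ubiquitin ligase then marks these subunits for destruction. When oxygen is low the alpha subunits persist, pair with ARNT and switch on genes of glycolysis, vessel growth and iron and haem handling. Some of those targets, Egln3 among them, act back on the pathway. Much of this control acts on protein stability and enzyme activity, which array signals do not measure.

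Values are the authors' log2 signals, and a difference of 1 is a doubling of signal. Differences are given with the standard error (SE) of limma, a linear model that moderates each gene's variance, fitted to all 9 arrays, and adjusted p-values are Benjamini-Hochberg values over all 19505 genes. None of the 10 genes passed an adjusted p of 0.05 in any contrast. At an unadjusted p of 0.05, limma called 2 of them in iCM-Ex against saline (15.2% of all genes), 1 in iCM against saline (20.5%) and 1 in iCM-Ex against iCM (14.5%). The background of adjusted calls was 0.349%, 3.67% and 1.07% of all genes in these contrasts. The moderated F test, which asks for a difference between any groups, called 0 of the 10 after adjustment (3.32% of all genes) and 3 unadjusted (21.8%), namely Egln3, Epas1 and Egln1. The 10 genes were split 6 higher to 4 lower in iCM-Ex against saline, 5 to 5 in iCM against saline and 4 to 6 in iCM-Ex against iCM. Their median differences were 0.06, −0.14 and −0.06, beside 0.04, 0.08 and −0.04 over all genes. An exact permutation test of 3 against 3 arrays cannot give a p below 0.1. Groups of arrays did not overlap for 3 of the 10 genes between iCM-Ex and saline (21.7% of all genes), for 2 between iCM and saline (24.0%) and for 2 between iCM-Ex and iCM (20.2%).

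The arrays carried markers of other tissues and differed in quality. The mean of 11 lung markers was 8.49 in iCM-Ex replicate 3 and 11.20 in iCM replicate 1, and at most 5.81 on the other arrays. The mean of 10 fast skeletal muscle markers was 12.57 in iCM replicate 2 and at most 6.42 elsewhere, and the mean of 9 fat markers was 10.15 in that array and at most 7.07 elsewhere. The gap between the median positive and the median negative control probe sets was 3.77 ± 0.21 in iCM-Ex, 2.94 ± 0.41 in iCM and 3.44 ± 0.15 in saline (SD, n = 3 each). Cardiomyocyte markers averaged 16.21 to 18.07 over the 9 arrays, far above the negative controls. The mean of 9 fibroblast markers was 14.16 to 15.33 in iCM-Ex, 12.08 to 14.63 in iCM and 13.65 to 15.49 in saline. In such pieces of tissue, fewer cells of a type and less RNA per cell cannot be told apart.

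**Figure D1:**
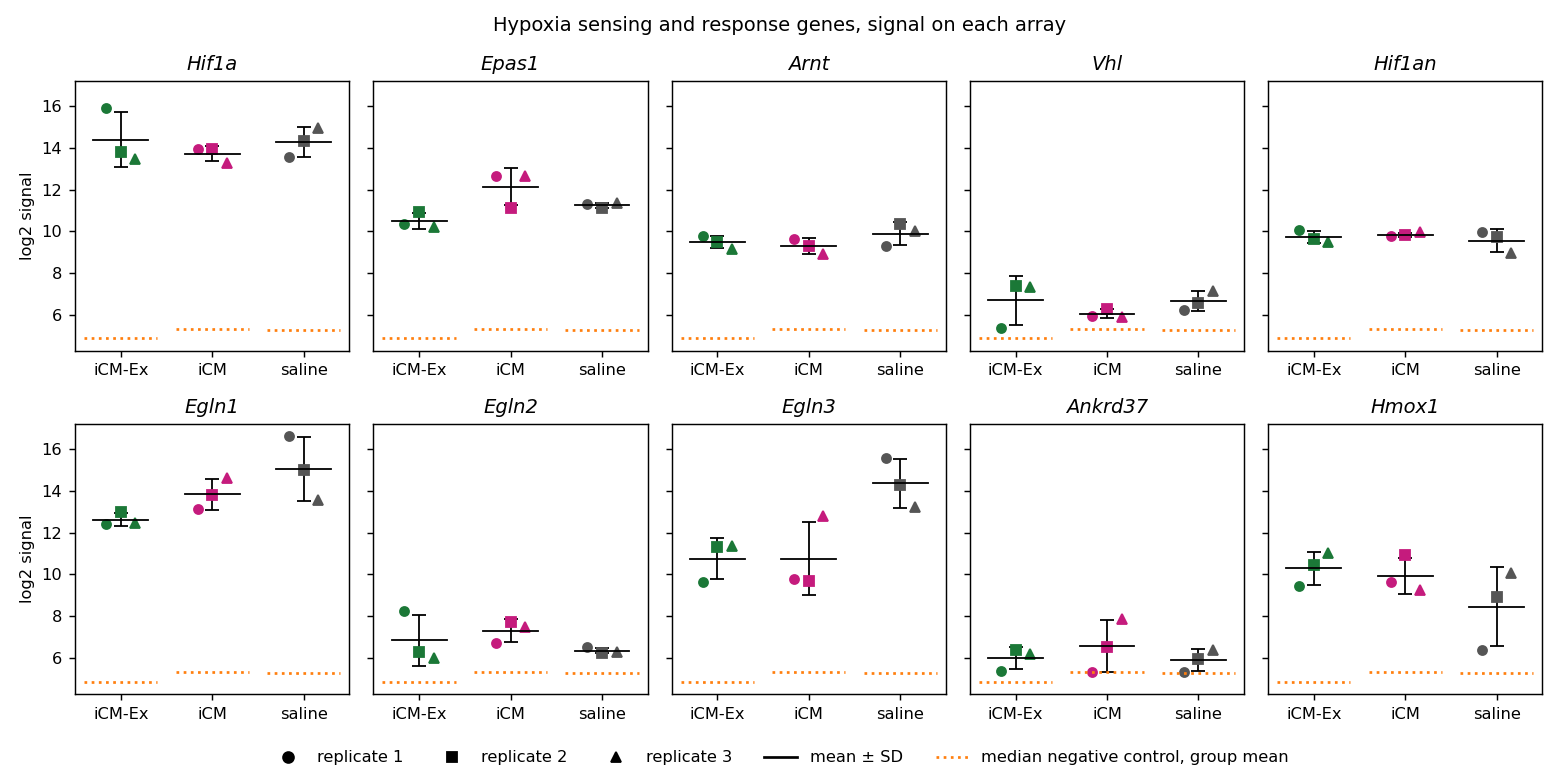
Log2 signal (vertical axis) of each of the 10 genes on the 9 arrays, by group, with the replicate number shown by the shape of the point, the mean as a line and the SD as a bar. Dotted lines give the group's mean of the median negative control. All 3 saline arrays of Egln3 lie above every iCM-Ex and iCM array, while Vhl, Egln2 and Ankrd37 lie close to the negative controls.

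The prolyl hydroxylase gene Egln3 (PHD3), whose expression is itself induced by HIF, had the largest differences from saline among the 10, in both treated groups. It had log2 signals of 9.61, 11.31 and 11.34 on the iCM-Ex arrays, 9.80, 9.71 and 12.78 on the iCM arrays and 15.58, 14.27 and 13.24 on the saline arrays. Every treated array lay below every saline array, and the treated groups overlapped each other. The difference from saline was −3.61 ± 0.87 (SE; 95% confidence interval −5.54 to −1.68) in iCM-Ex, a signal 12.2-fold lower, with a limma adjusted p of 0.102. In iCM it was −3.60 ± 0.87 (−5.53 to −1.67), a signal 12.1-fold lower, with a limma adjusted p of 0.0505. Neither passed the threshold. The same saline arrays served both comparisons, so the 2 differences are not independent. Only 4 genes, Egln3 included, had a difference from saline that low or lower in iCM-Ex (0.0205% of all genes), and 32 in iCM (0.164%). These shares count falls only and take no account of spread. Egln3 was also picked as the largest of the 10, so they are not p-values. iCM-Ex and iCM means were 10.76 ± 0.99 and 10.76 ± 1.75 (SD, n = 3 each), and their difference of −0.01 had a 95% confidence interval of −1.94 to 1.92.

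The size and the call in iCM turned on single arrays. iCM replicate 3 lay closer to saline than the other iCM arrays, which span 3.07 log2 units with it, and without it the difference was −4.61 with a limma adjusted p of 0.0193. Without iCM-Ex replicate 1, which changes only the pooled variance here, the limma adjusted p was 0.0492. Without the 3 arrays that carried lung, muscle or fat markers the iCM difference, then resting on iCM replicate 3 alone, was −1.58 (limma adjusted p = 0.573), and the iCM-Ex difference was −3.90 (limma adjusted p = 0.361). The mean of the cardiomyocyte markers, set beside Egln3, was 16.86, 17.07 and 16.68 in iCM-Ex, 16.72, 16.21 and 18.07 in iCM and 17.60, 17.56 and 16.70 in saline. The order of arrays by Egln3 and by these markers was the same in iCM and in saline and differed in iCM-Ex, where replicate 3 had the highest Egln3 signal and the lowest marker mean. In iCM replicate 3 was highest in both, with a marker mean above every saline array and an Egln3 signal below every saline array. The markers did not all follow their mean. On that array some were above every saline array and others were not. Some lay near the highest value of 19.93 on most arrays, where a rise can hardly show. The part of these markers in the Egln3 difference was not tested.

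Egln1 (PHD2), the main enzyme that sets HIF-1alpha turnover under normal oxygen, was ordered iCM-Ex below iCM below saline. Its log2 signals were 12.43, 13.01 and 12.45 in iCM-Ex, 13.13, 13.79 and 14.61 in iCM and 16.61, 14.99 and 13.56 in saline. The iCM-Ex arrays lay below all others, and iCM and saline overlapped. iCM-Ex differed from saline by −2.43 ± 0.67 (95% confidence interval −3.90 to −0.95), which did not pass the threshold (limma adjusted p = 0.131). Without saline replicate 3, the lowest of its group, the difference was −3.18 and passed (limma adjusted p = 0.0401). iCM differed from saline by −1.21 ± 0.67 (limma adjusted p = 0.336), and iCM-Ex from iCM by −1.22 ± 0.67 (limma adjusted p = 0.457). Without the 3 arrays that carried other tissues' markers, iCM-Ex differed from saline by −2.34 and iCM, then replicate 3 alone, from saline by −0.44 (limma adjusted p = 0.463 and 0.924). The saline arrays spread over 3.06 log2 units for Egln1 and 2.33 for Egln3, in the same order of replicates.

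Egln2 (PHD1), a mainly nuclear member of the family, went a different way. Its log2 signals were 8.26, 6.28 and 5.99 in iCM-Ex, 6.70, 7.74 and 7.49 in iCM and 6.52, 6.25 and 6.29 in saline. All iCM arrays lay above all saline arrays, while in iCM-Ex only replicate 1 did. The differences from saline were 0.49 ± 0.54 in iCM-Ex (limma adjusted p = 0.724) and 0.96 ± 0.54 in iCM (limma adjusted p = 0.348). Without iCM-Ex replicate 1 the iCM-Ex difference turned to −0.21. Egln2 was above the median negative control on all 9 arrays but above the 95th percentile of negative controls on 0 of 9, so its differences are uncertain in size.

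**Figure D2:**
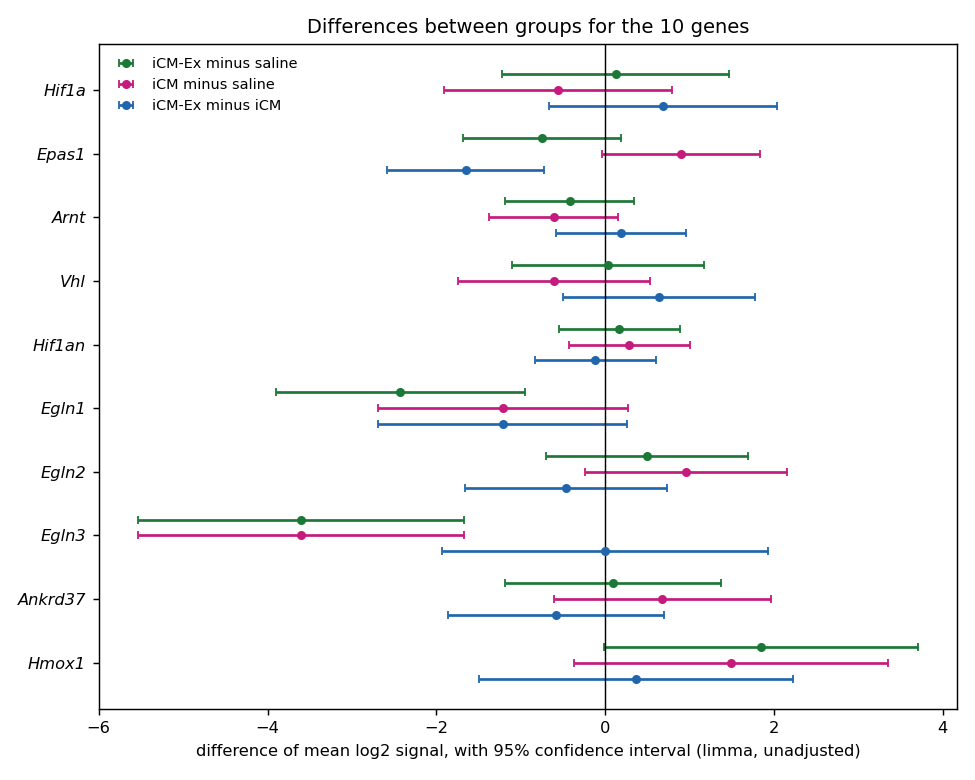
Difference of mean log2 signal (horizontal axis) for each of the 10 genes in the 3 contrasts, with limma's 95% confidence interval unadjusted for the number of genes. The intervals lie below 0 for Egln3 against saline in both treated groups, for Egln1 in iCM-Ex against saline and for Epas1 in iCM-Ex against iCM.

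Hypoxia response elements, the sites that HIF dimers bind, share the core letters ACGTG or GCGTG, and Egln1, Egln3 and Ankrd37 are known targets of HIF. Windows of 250 bases before to 50 bases after the annotated start were taken from RefSeq (GRCm38.p6) and searched for both cores on both strands. RefSeq windows were matched for 8 of the 10 genes, 9 windows in all. A core was found for 6 of these 8 genes. Of all 32851 windows of the same length 43.8% held a core, ACGTG in 19.6% and GCGTG in 32.4%. The first count is of genes, where Egln2 has 2 windows, and the second is of windows. The windows were not matched for G and C content, so the 2 figures are not a like comparison. The windows of the hydroxylase genes with the lowest signals relative to saline and of Ankrd37 are shown because they set genes of unlike signals side by side, each 5′ to 3′ along the gene with core letters in capitals on either strand.
Egln3, chr12:54203825-54204124, minus strand: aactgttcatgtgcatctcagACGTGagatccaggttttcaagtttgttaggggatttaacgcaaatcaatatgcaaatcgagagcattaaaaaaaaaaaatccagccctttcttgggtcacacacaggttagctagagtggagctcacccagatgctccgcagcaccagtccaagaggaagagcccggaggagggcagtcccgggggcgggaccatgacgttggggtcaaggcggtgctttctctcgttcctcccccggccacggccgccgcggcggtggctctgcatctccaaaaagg
Egln1, chr8:124949205-124949504, minus strand: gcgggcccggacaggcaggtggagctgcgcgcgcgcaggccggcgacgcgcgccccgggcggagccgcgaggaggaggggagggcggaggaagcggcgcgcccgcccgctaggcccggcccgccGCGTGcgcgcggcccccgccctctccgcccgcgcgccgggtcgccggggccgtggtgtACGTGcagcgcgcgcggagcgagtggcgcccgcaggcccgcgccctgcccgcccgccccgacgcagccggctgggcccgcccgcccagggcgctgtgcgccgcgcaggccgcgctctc
Ankrd37, chr8:45999801-46000100, minus strand: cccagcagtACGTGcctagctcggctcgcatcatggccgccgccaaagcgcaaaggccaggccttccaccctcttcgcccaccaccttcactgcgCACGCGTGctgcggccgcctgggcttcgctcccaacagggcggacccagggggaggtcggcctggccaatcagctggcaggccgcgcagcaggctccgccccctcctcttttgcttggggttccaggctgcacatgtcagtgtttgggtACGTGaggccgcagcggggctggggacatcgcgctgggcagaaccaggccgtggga
The Egln3 window held 1 core, starting 229 bases before the start, and its G and C content was 54.7%. The Egln1 window held 2 cores, at 126 and 68 bases before the start, in 86.0% G and C. Ankrd37 had 4 cores, at 241, 155, 152 and 6 bases before the start, the middle 2 of which overlap on opposite strands. Of the other windows, that of Hif1a held 3 cores, that of Arnt 1 and those of Egln2 6 and 1, and the windows of Vhl and Hif1an held 0. In Hif1a and in the Egln2 window with 6 cores, 2 of the cores are the same letters, CACGTG, counted once on each strand. A match of 5 letters is a description of the sequence and does not show binding.

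The oxygen-labile subunits differed from each other in pattern. Epas1 encodes HIF-2alpha, a subunit with high expression in endothelium and lung. Its log2 signals were 10.35, 10.92 and 10.20 in iCM-Ex, 12.66, 11.11 and 12.66 in iCM and 11.28, 11.11 and 11.33 in saline. iCM-Ex lay below the other 2 groups without overlap, while iCM replicate 2 sat at the saline level and the other iCM arrays above it. iCM-Ex differed from iCM by −1.65 ± 0.42 (95% confidence interval −2.59 to −0.72; limma adjusted p = 0.0935), and passed without iCM replicate 2, at −2.17 (limma adjusted p = 0.0338). Against saline the differences were −0.75 ± 0.42 in iCM-Ex (limma adjusted p = 0.434) and 0.90 ± 0.42 in iCM (limma adjusted p = 0.261). Without the 3 arrays with other tissues' markers the iCM-Ex to iCM difference was −2.03 (limma adjusted p = 0.253), with iCM then resting on replicate 3, 1 of its 2 high arrays, and on the assumption that it varies like the other groups. Of the 2 high iCM arrays 1 carried lung markers and the other did not, with lung marker means of 11.20 and 4.97. The mean of 9 endothelial markers was 9.40, 10.12 and 10.03 in iCM-Ex, 10.55, 9.75 and 10.37 in iCM and 9.70, 10.13 and 10.46 in saline. The lowest endothelial mean and the lowest Epas1 signal fell on the same array in iCM and on different arrays in iCM-Ex and in saline. The markers did not all follow their mean. Of the 9, 5 were lower and 4 higher in iCM-Ex than in saline, and 6 lower and 3 higher than in iCM. In iCM-Ex 3 lay below saline without overlap (21.7% of all genes did not overlap) and 3 below iCM (20.2%), and 0 lay above either. Cdh5 alone passed the F test (limma adjusted p = 0.0486, beside 3.32% of all genes), with each iCM-Ex array below every other array. The part of endothelial content was not tested.

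Hif1a, which encodes HIF-1alpha, had log2 signals of 15.93, 13.78 and 13.48 in iCM-Ex, 13.92, 13.93 and 13.29 in iCM and 13.54, 14.33 and 14.96 in saline. The groups overlapped, and iCM-Ex replicate 1 was the highest of all 9 arrays. The differences from saline were 0.12 ± 0.61 in iCM-Ex (95% confidence interval −1.22 to 1.47; limma adjusted p = 0.949) and −0.56 ± 0.61 in iCM (−1.91 to 0.79; limma adjusted p = 0.648). Without iCM-Ex replicate 1 the iCM-Ex difference turned to −0.64. Arnt, the constitutive partner of both alpha subunits, had log2 signals of 9.75, 9.48 and 9.17 in iCM-Ex, 9.65, 9.30 and 8.89 in iCM and 9.30, 10.34 and 10.03 in saline. All 3 groups overlapped, with the 2 highest arrays in saline, and Arnt spanned 1.45 log2 units over the 9 arrays. Its differences from saline were −0.42 ± 0.34 in iCM-Ex (limma adjusted p = 0.618) and −0.61 ± 0.34 in iCM (limma adjusted p = 0.351). Arnt was above the 95th percentile of negative controls on 7 of 9 arrays, with iCM replicates 2 and 3 below it.

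Hif1an encodes FIH, the asparaginyl hydroxylase that blocks the binding of coactivators to HIF alpha, and it had the smallest span over the 9 arrays among the 10 genes. Its log2 signals were 10.07, 9.63 and 9.47 in iCM-Ex, 9.76, 9.82 and 9.95 in iCM and 9.98, 9.74 and 8.94 in saline, a span of 1.13. The 95% confidence interval of its difference from saline was −0.55 to 0.89 in iCM-Ex and −0.43 to 1.0 in iCM, and of its difference between iCM-Ex and iCM −0.84 to 0.60. The intervals against saline leave out differences of the size measured for Egln3 in the same contrasts. Vhl, the substrate-binding part of the ligase, had log2 signals of 5.35, 7.38 and 7.33 in iCM-Ex, 5.94, 6.30 and 5.91 in iCM and 6.24, 6.57 and 7.15 in saline. The groups overlapped, and the lowest and the highest of the 9 arrays were both in iCM-Ex. Like Egln2 it was above the 95th percentile of negative controls on 0 of 9 arrays. Its limma adjusted p was 0.985 in iCM-Ex and 0.544 in iCM, each against saline.

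Of the response genes, Hmox1 encodes haem oxygenase 1, which breaks down haem and is induced by haem, oxidative stress and, in many cells, HIF. Its log2 signals were 9.44, 10.44 and 11.02 in iCM-Ex, 9.64, 10.92 and 9.27 in iCM and 6.37, 8.92 and 10.07 in saline. Saline replicate 1 lay far below all other arrays, and saline replicate 3 lay within both treated groups. Hmox1 was above the 95th percentile of negative controls on 7 of 9 arrays. Saline replicates 1 and 2 were below it (8.59 and 9.08), so the differences of Hmox1 from saline are uncertain in size. The differences from saline were 1.85 ± 0.84 in iCM-Ex (95% confidence interval −0.01 to 3.71; limma adjusted p = 0.329) and 1.49 ± 0.84 in iCM (limma adjusted p = 0.347). Without saline replicate 1 they were 0.81 and 0.45, and without the 3 arrays with other tissues' markers 1.49 and 0.81. Macrophages are a main site of haem breakdown, and the mean of 9 of 10 macrophage markers measured was 9.97, 10.90 and 10.92 in iCM-Ex, 9.13, 9.41 and 8.58 in iCM and 7.80, 9.03 and 10.70 in saline. Within each group the marker mean and Hmox1 had the same order of arrays. The single markers did not all follow their mean. In iCM some had the order of Hmox1 and others did not. In all 3 groups 1 of these 9 markers, Marco, had a mean below the median negative control. The mean of 3 of 8 erythroid markers measured was 6.74, 8.44 and 7.30 in iCM-Ex, 6.39, 7.70 and 6.40 in iCM and 5.34, 6.13 and 6.20 in saline. The part of macrophage or blood content in the Hmox1 values was not tested.

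**Figure D3:**
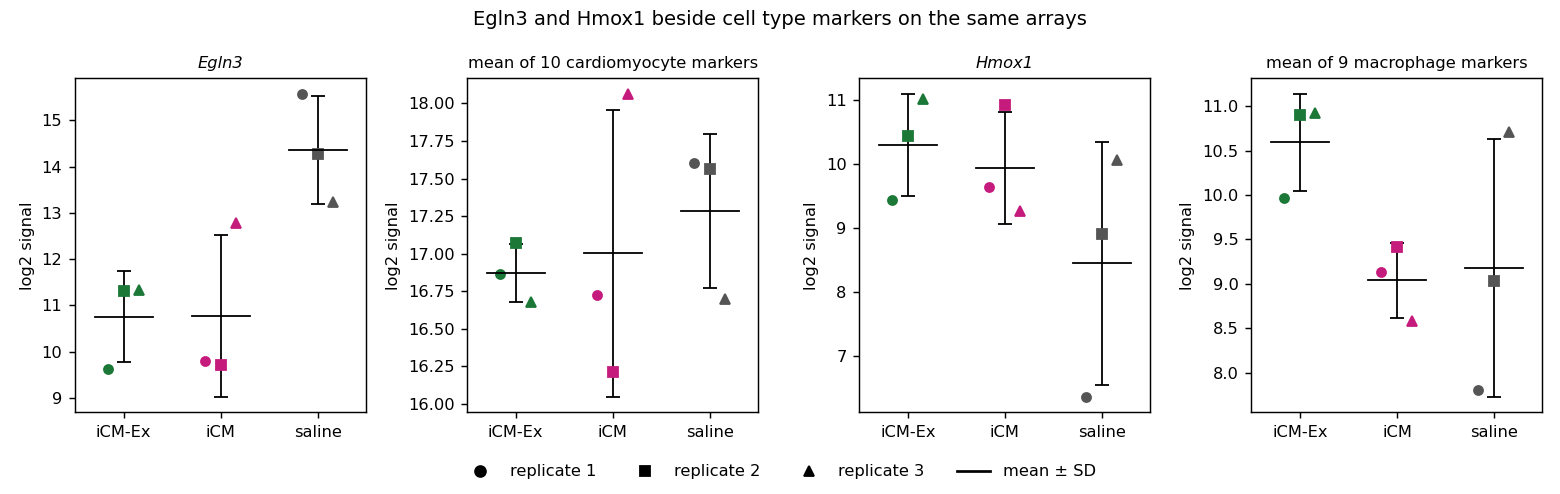
Log2 signal (vertical axes, each with its own scale) of Egln3, the mean of 10 cardiomyocyte markers, Hmox1 and the mean of 9 macrophage markers on the same 9 arrays, with group means as lines and SD as bars. Hmox1 and the macrophage mean share their order of replicates within each group, though not every single marker does, and saline replicate 1 is lowest in both.

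Ankrd37, an ankyrin repeat gene known as a direct HIF target, had log2 signals of 5.39, 6.37 and 6.21 in iCM-Ex, 5.32, 6.54 and 7.84 in iCM and 5.33, 5.95 and 6.40 in saline. Replicate 1 was the lowest array in every group, at 5.32 to 5.39, close to the median negative control, and iCM replicate 3 was the highest. The differences from saline were 0.10 ± 0.58 in iCM-Ex (limma adjusted p = 0.959) and 0.68 ± 0.58 in iCM (limma adjusted p = 0.548). Without the 3 arrays with other tissues' markers, iCM replicate 3 stood alone for iCM and the iCM difference was 1.95 (limma adjusted p = 0.238). Ankrd37 too was above the 95th percentile of negative controls on 0 of 9 arrays.

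Beyond the 10 genes, 4 lists of 88 pathway genes were read from the same fit, of which 82 were measured. In iCM-Ex against saline 0 of the 82 passed the adjusted threshold, against 0.349% of all genes, as did 0 in iCM-Ex against iCM, where the share over all genes was 1.07%. At an unadjusted p of 0.05, limma called 3 of 14 cofactor genes, 5 of 22 glucose and mitochondrial targets, 8 of 29 vessel, matrix and signalling targets and 1 of 17 haem and NRF2 genes in iCM-Ex against saline, beside 15.2% of all genes. In the same order of lists it called 4, 8, 6 and 4 in iCM against saline, beside 20.5% of all genes, and 2, 3, 6 and 5 in iCM-Ex against iCM, beside 14.5%. After adjustment 4 passed in iCM against saline, 2 higher and 2 lower. Over all genes 1.34% rose and 2.33% fell in that contrast. All 4 were also past the F test. Leaving out 1 array moved the differences between 1.59 and 2.36 for Vegfa, 1.58 and 2.32 for Higd1a, −2.20 and −1.71 for Pgam1 and −5.15 and −3.78 for Slc48a1, and without saline replicate 2 none of the 82 passed. Without the 3 arrays that carried lung, muscle or fat markers, which leaves iCM with replicate 3 alone, 0 of the 82 and 6 of all genes passed, at differences of 2.97 for Vegfa, 2.81 for Higd1a, −1.38 for Pgam1 and −4.68 for Slc48a1. With the control gap as a covariate 0 of the 82 and 33 of all genes passed, at 2.20, 1.94, −1.37 and −2.99 in the same order. Vegfa, Higd1a and Pgam1 also missed the threshold without saline replicate 3 or iCM replicate 2, Pgam1 without iCM replicate 1 and Higd1a without iCM replicate 3. The part of the markers and of the control gap in the size of these differences was not tested.

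HIF targets of vessels, matrix and signalling had 1 of 29 measured genes that rose and 0 that fell in iCM. Vegfa, the main endothelial growth factor gene and a classical HIF target, had log2 signals of 10.01, 9.70 and 9.34 in iCM-Ex, 10.94, 11.26 and 12.48 in iCM and 9.60, 9.44 and 9.47 in saline. The iCM arrays lay above all others, and iCM-Ex overlapped saline. Vegfa rose by 2.05 ± 0.39 in iCM against saline (limma adjusted p = 0.0236), and its iCM-Ex to iCM difference of −1.87 ± 0.39 did not pass (limma adjusted p = 0.0559). The median difference of this list was 0.05 in iCM-Ex and 0.23 in iCM against saline, beside 0.04 and 0.08 over all genes.

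HIF targets of glucose and mitochondria had 1 of 22 measured genes that rose and 1 that fell in iCM. Higd1a, a hypoxia-induced protein of the inner mitochondrial membrane, had log2 signals of 9.76, 9.76 and 10.12 in iCM-Ex, 9.89, 10.38 and 11.37 in iCM and 8.77, 8.88 and 8.04 in saline. All treated arrays were above all saline arrays. Saline replicates 2 and 3 lay below the 95th percentile of negative controls on their arrays (9.08 and 8.74). Higd1a rose by 1.99 ± 0.40 in iCM (limma adjusted p = 0.0269), while its difference of 1.32 ± 0.40 in iCM-Ex did not pass (limma adjusted p = 0.162). The glycolytic mutase gene Pgam1 had log2 signals of 8.46, 9.14 and 9.17 in iCM-Ex, 7.63, 7.38 and 8.28 in iCM and 9.06, 9.88 and 10.04 in saline. The iCM arrays were below all others, and Pgam1 fell by 1.90 ± 0.37 in iCM (limma adjusted p = 0.025). Each iCM signal of Pgam1 lay below the 95th percentile of negative controls on its array (8.80, 9.67 and 9.03). The size of the fall is therefore uncertain. The list's median difference was 0.07 in iCM-Ex and 0.29 in iCM against saline.

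Genes of haem breakdown and of NRF2, the factor of the oxidative stress response, had 0 of 17 that rose and 1 that fell in iCM, with a median of 0.09 in iCM-Ex and −0.39 in iCM against saline. Slc48a1, which moves haem out of the lysosome, had log2 signals of 9.14, 10.97 and 11.18 in iCM-Ex, 8.40, 5.66 and 6.58 in iCM and 10.65, 11.34 and 11.82 in saline. Each iCM array lay below every other array. Each also lay below its own 95th percentile of negative controls (8.80, 9.67 and 9.03), and replicate 2 was close to its median negative control of 5.56. Differences of Slc48a1 from iCM are therefore uncertain in size. Slc48a1 fell by 4.39 ± 0.72 in iCM against saline (limma adjusted p = 0.0135), and the iCM-Ex to iCM difference was 3.55 ± 0.72 (limma adjusted p = 0.0502). The macrophage marker mean given above overlapped between iCM and saline, at 9.04 and 9.18 on average. It was lower in each iCM array than in each iCM-Ex array. Of its 9 members 6 were lower and 3 higher in iCM than in saline. Between iCM and iCM-Ex 8 were lower in iCM and 1, Cd163, was higher. Cd163 was higher in each iCM array than in each iCM-Ex or saline array. The part of macrophage content in the Slc48a1 difference was not tested. Hmox1, which acts on the same haem, was at a mean of 10.30 ± 0.80 in iCM-Ex, 9.94 ± 0.87 in iCM and 8.45 ± 1.90 in saline (SD, n = 3 each). Of the 14 measured HIF cofactors and parts of the degradation machinery 0 passed in any contrast. The smallest F test p-values in that list were those of the deubiquitinase gene Usp33 and of Elob, an adaptor of the VHL ligase, with F test adjusted p of 0.151 and 0.177 by limma. Usp33 had log2 signals of 8.86, 8.59 and 7.63 in iCM-Ex, 9.12, 9.22 and 8.96 in iCM and 9.52, 9.56 and 9.34 in saline. Elob had 12.27, 13.12 and 13.79 in iCM-Ex, 11.53, 10.09 and 12.11 in iCM and 12.35, 11.80 and 13.18 in saline.

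**Figure D4:**
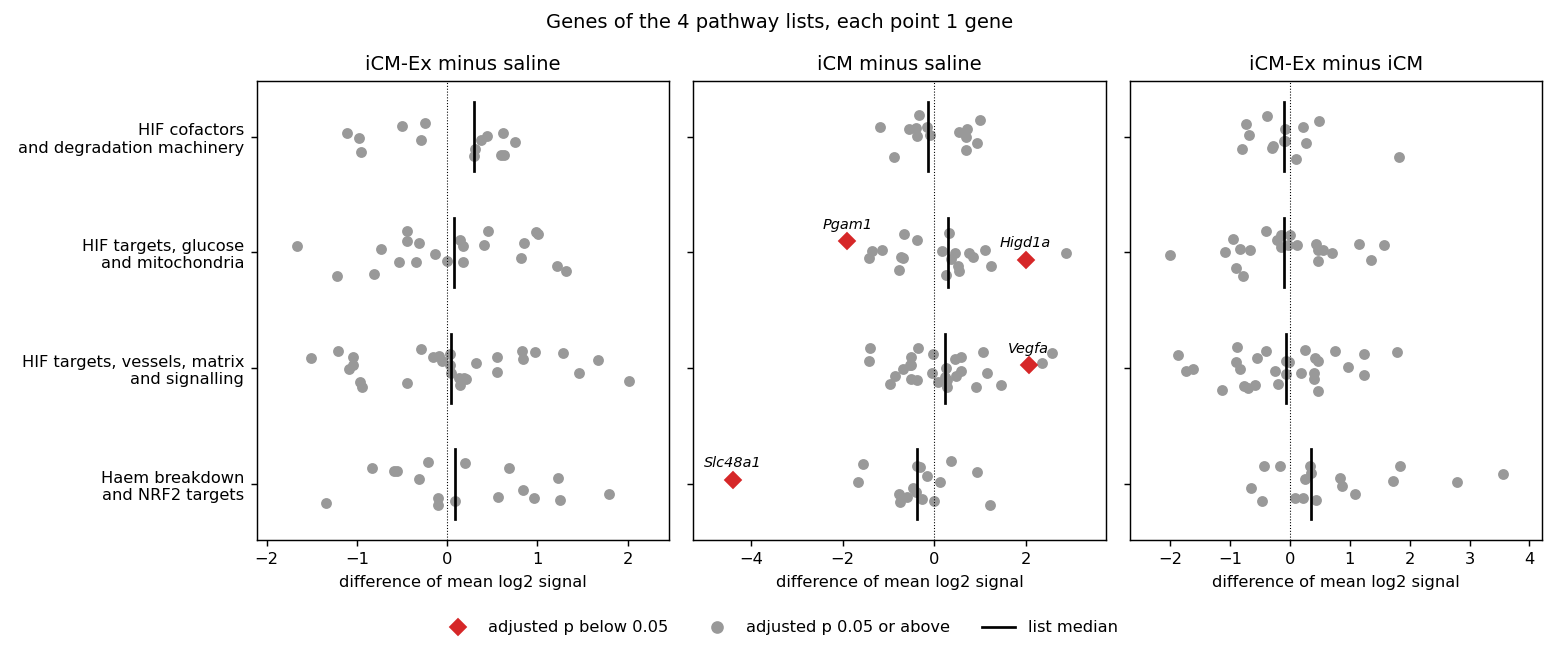
Difference of mean log2 signal (horizontal axis) of each measured gene of the 4 pathway lists in the 3 contrasts, with list medians as vertical bars and genes past an adjusted p of 0.05 as red diamonds. The 4 genes past the threshold, Vegfa, Higd1a, Pgam1 and Slc48a1, are all in iCM minus saline.

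**Figure D5:**
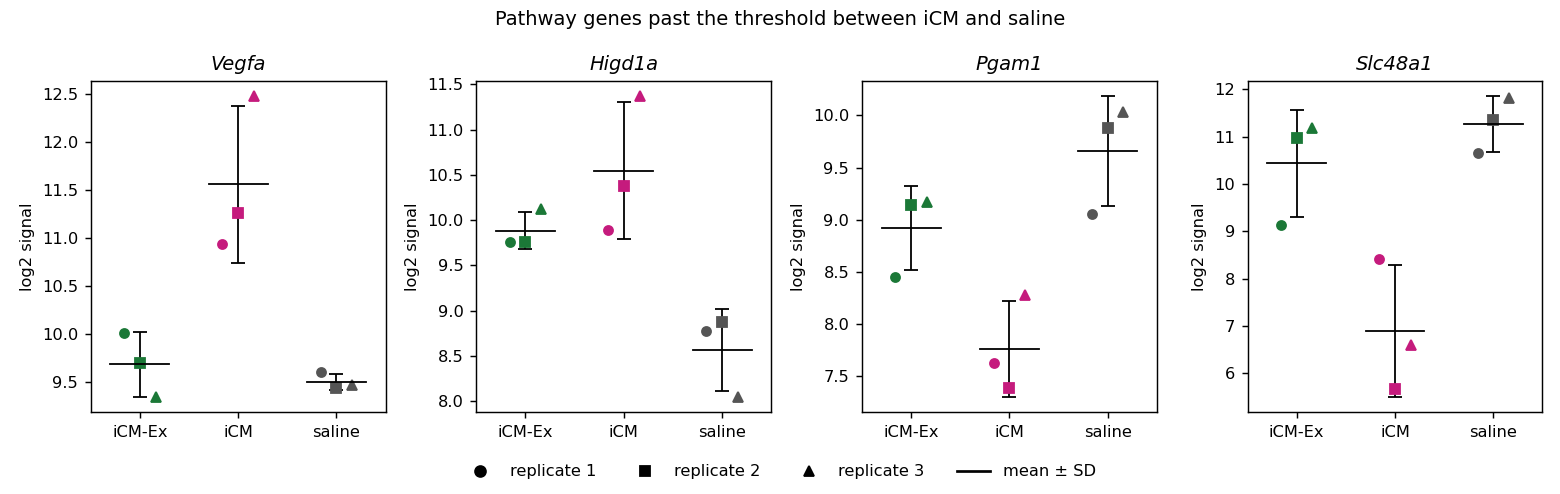
Log2 signal (vertical axes, each with its own scale) of Vegfa, Higd1a, Pgam1 and Slc48a1 on the 9 arrays by group, with means as lines and SD as bars. For each gene the iCM and saline arrays do not overlap.

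The genes most like Egln3, the member with the smallest F test p, were named by the root mean square difference between log2 signals centred on each gene's mean over the 9 arrays. Nipsnap2, a mitochondrial protein gene, came first at 0.75, followed by Coro6, a coronin, at 0.76 and Got2, the mitochondrial aspartate aminotransferase gene, at 0.77. These were the smallest among the 12198 genes with a group mean above the median negative control, and Egln3 itself varied by 2.02 on this scale. Got2 had log2 signals of 14.61, 15.44 and 15.17 in iCM-Ex, 14.40, 12.73 and 16.02 in iCM and 18.10, 17.54 and 16.27 in saline. Among the other 9 genes Egln1 was nearest to Egln3, at 1.20 and place 96, and Hmox1 farthest, at 3.10 and place 11968. This is a description over 9 arrays that share their groups.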

How the data were processed

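The labels' protocols describe total RNA of the border zone, labelled as 5.5 µg of cDNA for Clariom S arrays. What the authors deposited is a log2 signal for each probe set on each array. The submitters' processing notes name Affymetrix Expression Console. Neither its version nor the background correction and normalisation used are stated there, and the log2 scale is inferred from a range of 2.25 to 19.93.

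Of 28846 rows 6640 were controls and 22206 were for genes. The platform annotation gave 1 symbol for 19572 gene rows, none for 2634 and several for 0. Entrez identifiers linked all 19572 to RefSeq. For 55 genes with more than 1 row the brightest was kept, which left 19505 genes, and the tests used no filter on low signals.

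limma 3.58.1 in R 4.3.3 fitted a mean per group to all 9 arrays (prior degrees of freedom 4.23), with two-sided moderated tests and Benjamini-Hochberg adjustment over all genes at 0.05. The number of arrays limits the precision.

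The 10 genes and all lists were chosen with earlier results of these data known. The named genes are the 10, the pathway genes past the threshold (or, where a list had none, the 2 with the smallest F test p) and the 3 genes most like Egln3. Marker genes stand as list means, except Marco, Cd163 and Cdh5, which were named after their values were seen. Lists covered cardiomyocytes, endothelium, macrophages, fibroblasts, erythroid cells, lung, skeletal muscle and fat. Alternatives were quantile normalisation, other sets of rows and filters, fits of 2 groups only, a variance trend, array weights, the replicate number as a block, the control gap as a covariate and leaving out arrays.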

Additional observations from a re-analysis of the deposited data

How the results depend on the processing

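The differences of the 10 genes were compared under 20 alternatives by direction and side of the threshold. Both were kept in 314 of 330 values. These came from settings that keep all replicates or drop the 3 arrays that carried markers of other tissues (the marked arrays). Leaving out 1 array kept both in 247 of 270 values. Much of the agreement in direction was fixed in advance. Other rows, filters, fits of 2 groups, the variance trend and the block leave a difference of these genes as it was. So does leaving out an array of the third group. In those settings only the adjusted p could move. With array weights 2 of the 10 passed in iCM-Ex against saline (Egln1 and Egln3), 1 in iCM against saline (Egln3) and 2 in the F test. The shares of all genes were 6.09%, 7.69% and 10.8%. In iCM against saline Egln3 was the 1 of the 10 past the threshold with only genes above the median signal, with only genes above the negative control and with a variance trend. These settings called 757, 803 and 593 of all genes tested, beside 716 as reported. Both filters, which test fewer genes, gave 1 of the 10 in the F test, where 791 and 776 of all genes tested passed, beside 647 as reported. Leaving out 1 array gave 0 to 1 of the 10 in each contrast and in the F test. Over all genes it gave 0 to 163 in iCM-Ex against saline, 126 to 803 in iCM against saline, 0 to 401 in iCM-Ex against iCM and 43 to 723 in the F test.

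Of the 82 pathway genes array weights called 6 in iCM-Ex against saline, 3 in iCM-Ex against iCM and 12 in the F test, beside 6.09%, 2.87% and 10.8% of all genes. The iCM against saline count was 1 with only those 2 groups, and 0 both without the marked arrays and with the control gap as a covariate, as was the F test count under both. iCM-Ex against iCM gave 2 after quantile normalisation, 3 with genes above the median signal, 2 with genes above the negative control and 1 with a variance trend. Of all genes tested these settings called 299, 352, 330 and 118, beside 208 as reported. The variance trend gave 1 in the F test, beside 418 of all genes, where 647 passed as reported. Leaving out 1 array gave 0 to 1 in iCM-Ex against saline, 0 to 5 in iCM against saline, 0 to 4 in iCM-Ex against iCM and 0 to 5 in the F test, beside the ranges over all genes given above.

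Same-numbered arrays deviated from their group means with correlations of −0.257 to 0.068, and differently numbered arrays with −0.156 to 0.249. The labels do not say whether the numbers pair the hearts, and correlations over so few arrays cannot settle it. With the replicate number as a block 0 of the 10 genes passed in any contrast, and the pathway counts were 0, 2, 0 and, in the F test, 0. Over all genes the block gave 0, 338 and 18 calls, array weights 1187, 1500 and 559, and dropping the marked arrays 0, 6 and 0, in iCM-Ex against saline, iCM against saline and iCM-Ex against iCM, beside 68, 716 and 208.

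Small differences changed sign, none of them past the threshold in either setting. In iCM-Ex against saline Hif1a was −0.23 with array weights, Vhl −0.030 after quantile normalisation, −0.29 without the marked arrays and −0.14 with the covariate, and Ankrd37 −0.015 and −0.090 in these last settings. In iCM-Ex against iCM the covariate gave −0.063 for Arnt, 0.62 for Egln2 and 0.19 for Hif1an, and array weights 0.056 for Egln3. Leaving out 1 array moved, in iCM-Ex against saline, Hif1a between −0.64 and 0.58, Egln2 between −0.21 and 0.92, Vhl between −0.32 and 0.70, Hif1an between −0.14 and 0.38 and Ankrd37 between −0.19 and 0.40, and in iCM against saline Hif1an between −0.022 and 0.50. In iCM-Ex against iCM it moved Hif1a between −0.081 and 1.14, Arnt between −0.0061 and 0.37, Egln3 between −0.53 and 1.0, Hif1an between −0.29 and 0.0085 and Ankrd37 between −1.21 and 0.055. The cause was not tested. Signals near the negative controls limit Egln2, Vhl and Ankrd37. Hmox1 and Arnt were each above the 95th percentile of negative controls on 7 of 9 arrays.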

Other observations

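Single arrays stood apart in the pathway genes, and those described here were picked out after their values were seen. The shares over all genes take in many genes near the negative controls, so they are not a like comparison. In iCM-Ex replicate 1, 13 of the 82 pathway genes (15.9%) were more than 1 log2 unit above both other iCM-Ex arrays, beside 2.85% of all genes, and 8 (9.76%) were below both by that margin, beside 4.51%. Those above were the glucose genes Slc2a1, Hk1, Pfkfb3 and Slc16a3, the signalling and matrix genes Adm, Lox, Plod2, Ddit4, Bhlhe40, Bhlhe41 and Stc1, and the stress genes Bach1 and Txnrd1. Those below were Bnip3l, Edn1, Hmox2, Blvrb, Ftl1, Keap1, Slc48a1 and Slc40a1. Hif1a and Egln2 were above by the same margin on that array, and Egln3, Vhl and Hmox1 below.

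In iCM replicate 3, 9 of the 82 (11.0%) were above both other iCM arrays by that margin, beside 4.59% of all genes, and 4 (4.88%) were below, beside 2.84%. Those above were Hk2, Pfkl, Gapdh, Pdk1, Bnip3, Mxi1, Vegfa, Flt1 and Plin2, and Egln3 and Ankrd37 were above with them. In saline replicate 1, 14 of the 82 (17.1%) were below both other saline arrays by that margin, beside 10.7% of all genes, and 1 (1.22%) was above, beside 4.66%. Hmox1 was below by that margin, and Egln1 and Egln3 were above. Other arrays also stood apart. In iCM replicate 1, 6 of the 82 (7.32%) were below both other iCM arrays, beside 2.57% of all genes, and 4 (4.88%) above, beside 4.89%. In iCM replicate 2, 6 (7.32%) were above, beside 3.59%, and 3 (3.66%) below, beside 3.44%.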
